A study of Arabidopsis thaliana with 18 samples.

Results

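Shoots of Arabidopsis thaliana plants (ecotype Col-0) sampled 3 days after phosphate was returned were set against shoots of plants still starved of it. The comparison took the 6 shoot arrays labelled Phosphate recovery (called replete here) and Phosphate starvation (starved), 3 arrays each, of 18 arrays in the series, and 22746 of the 22810 probe sets, leaving out the manufacturer's controls. Replete plants grew hydroponically for 20 days in full medium, 10 days without phosphate and 3 days in full medium again, and were 33 days old at sampling. Starved plants had the same 20 days of full medium and 10 days without phosphate and were 30 days old. Mock plants, which give the level of shoots that were never starved, stayed in full medium and were also 30 days old. Because replete plants were 3 days older, recovery and age cannot be told apart. The arrays measured RNA of whole shoots, in which fewer cells of a type and less RNA per cell cannot be told apart. The 3 arrays of a group are biological replicates by their titles. The p-values rest on the spread within groups, pooled over all 18 arrays of both organs.

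Phosphate is a building block of membranes, nucleic acids and ATP, and plants that run short of it switch on a set of genes known as the phosphate starvation response. SPX proteins sense phosphate through inositol pyrophosphates and, when it is plentiful, hold back PHR1, the transcription factor that drives much of this response. The induced genes include phosphate transporters, phosphatases that free phosphate from organic compounds, and enzymes that replace membrane phospholipids by galactolipids and sulfolipids. Phosphate signalling is also linked to jasmonate, cytokinin and sugar signalling.

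Values are log2 signals of a probe set, so a difference of 1 is a factor of 2, and levels are compared between arrays of the same probe set. A probe set was called where its adjusted p was 0.001 or less, and members of gene lists were counted a second time at 0.05. Of 22746 probe sets, 24 were higher in replete than in starved shoots (0.106%) and 137 were lower (0.602%). At the looser threshold, 901 were higher (3.96%) and 1064 were lower (4.68%). With Bonferroni adjustment at 0.001, the stricter correction, 3 were higher and 39 lower. The median change over all probe sets was -0.0033. Of the 137 lower probe sets, 41 changed by 2 or more on the log2 scale and 7 by 4 or more, as against 4 and 0 of the 24 higher ones. The 3 replete and 3 starved values did not overlap in any of the 161 called probe sets, which held for 27.1% of all probe sets.

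The numbers of calls depended on the spread shared over all 18 arrays. With the 9 shoot arrays alone, 3 probe sets were higher and 37 lower, of which 2 and 36 were among the 24 and 137. When arrays were centred on 3 reference genes, 46 were higher and 101 lower, so that the higher share of the calls was 31.3%, where it was 14.9% with the values as deposited.

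**Figure D1:**
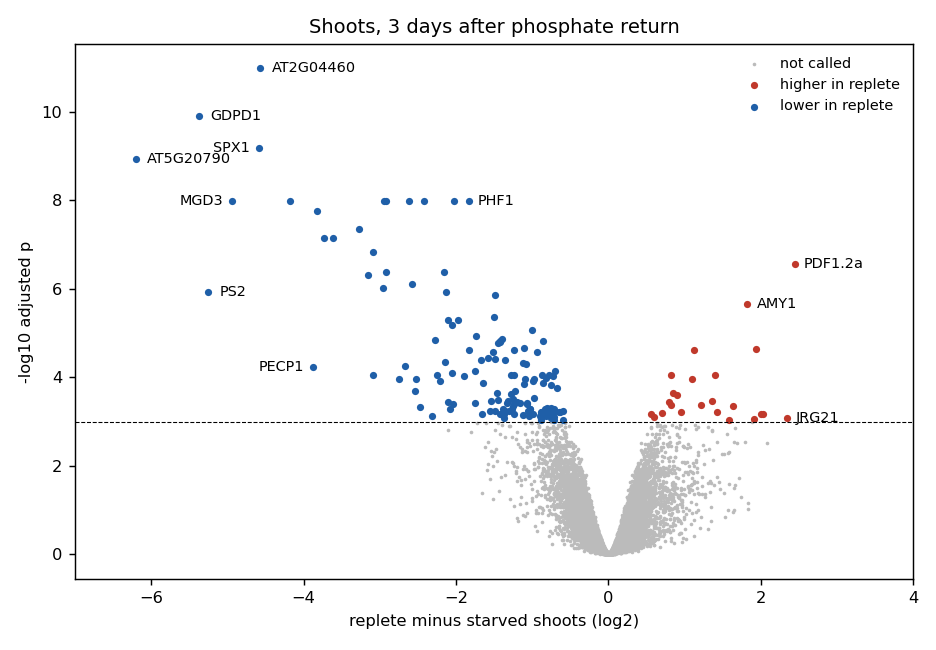
Change between replete and starved shoots (log2, x axis) and the −log10 of its adjusted p (y axis) for 22746 probe sets, with the dashed line at an adjusted p of 0.001. The 137 lower probe sets reach -6.20 (AT5G20790), whereas the 24 higher ones reach 2.45 (PDF1.2a).

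Starved array 3 stood closer to the replete arrays than starved arrays 1 and 2 did. It was the starved array nearest the replete ones in 114 of the 137 lower probe sets and in 17 of the 24 higher ones. Without it, 38 probe sets were higher and 240 lower. Photosynthesis genes, which mark leaf tissue, were high in every shoot array: the log2 of the summed signal of 6 genes was 14.825 to 14.935 in replete shoots, against 14.996 to 15.027 in starved shoots, and 7.23 to 8.43 in roots. Markers of root tissue summed to 8.26 to 8.62 in replete shoots, against 7.77 to 8.18 in starved shoots, with 8.25 to 8.33 in mock shoots and 12.2 to 12.5 in roots. The root marker that passed the looser threshold was PYK10, a root beta-glucosidase, with a change of 0.52 (SE 0.14, adjusted p = 0.025). The other 4 measured root markers, EXPA7, EXPA18, RHD6 and COBL9, lay between 2.66 and 4.47 in these 6 arrays. SOC1, the measured member of the flower and seed markers, changed by 0.02 (adjusted p = 0.92).

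Names limited what could be described. The platform annotation gave 1 gene to 13513 probe sets, and a table of the study gave names to a further 551. All 17 named rises came from the platform annotation. Of the 106 named falls, 63 came from the platform annotation and 43 from the study's table. Since that table holds probe sets that the study had called in roots, the list members named through it were not picked blind to phosphate. Counts over lists that hold such members are descriptive, and their counts in roots are not given.

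Many measured genes of the phosphate starvation response fell in replete shoots. The 4 lists of phosphate signalling, phosphate transport, release of phosphate from organic compounds and membrane lipid remodelling held 42 measured genes of 72 listed, of which 23 fell at the 0.001 threshold and 0 rose, beside 0.602% of all probe sets lower. At the looser threshold 25 fell and 0 rose, so that the rest, among them 8 of the 11 transport genes, passed neither. Their median change was -1.09. Of the 42, 34 were named from the root-based table, with 21 falls, and 8 from the platform annotation, with 2 falls.

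Among regulators, 5 of 10 measured genes fell, and the SPX family showed the largest changes. SPX1 read 6.39, 6.73 and 6.25 in replete shoots, against 11.21, 11.31 and 10.61 in starved shoots, and 7.26, 7.5 and 7.91 in mock shoots. The replete arrays lay below all others. The change was -4.59 (SE 0.20, adjusted p = 6.5e-10), which is 24.0-fold lower. Relative to mock shoots SPX1 differed by -1.10 (adjusted p = 0.015), which missed the 0.001 threshold.

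SPX2 read 6.90, 6.86 and 6.91 in replete shoots, against 8.96, 9.11 and 8.70 in starved shoots. SPX3 read 3.92, 3.85 and 3.82 in replete shoots, against 6.67, 7.14 and 5.41 in starved shoots. Both fell, by -2.03 (SE 0.12) and -2.54 (SE 0.33), and the replete arrays of each lay close together. The mock arrays of SPX3 lay lower still, at 3.47, 3.43 and 3.00. SPX3 missed the 0.001 threshold in 7 of 27 alternatives with Benjamini-Hochberg adjustment, with an adjusted p of up to 0.015.

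PHF1, which lets phosphate transporters leave the endoplasmic reticulum, read 6.76, 6.74 and 6.84 in replete shoots, against 8.75, 8.75 and 8.34 in starved shoots. It changed by -1.83 (SE 0.10, adjusted p = 1.0e-08), and its mock arrays, 7.14 to 7.23, lay between the other groups. HHO2, a MYB-type transcription factor, read 8.26 to 8.41 in replete shoots, against 9.17 to 9.34 in starved shoots, and changed by -0.93 (SE 0.10, adjusted p = 2.6e-05). The other 5 measured regulators passed neither threshold, with changes from -0.03 (WRKY6, a transcription factor) to 0.33 (LPR1, a ferroxidase of root growth under low phosphate).

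In phosphate transport, 3 of 11 measured genes fell and 0 rose. PHO1;H1, a homologue of the phosphate exporter PHO1, read 4.85, 4.92 and 4.56 in replete shoots, against 7.81, 7.92 and 7.45 in starved shoots. It changed by -2.95 (SE 0.17, adjusted p = 1.0e-08). G3Pp1, of a family of glycerol-3-phosphate permeases, read 7.51, 6.96 and 6.41 in replete shoots, against 9.88, 10.12 and 9.11 in starved shoots, a change of -2.74 (SE 0.34, adjusted p = 0.00011). PHO1 itself, which loads phosphate into the xylem in roots, read 5.26, 5.27 and 5.24 in replete shoots, against 6.29, 6.19 and 5.95 in starved shoots. It changed by -0.89 (SE 0.13, adjusted p = 0.00061), and missed the 0.001 threshold in 15 of 27 Benjamini-Hochberg alternatives, with an adjusted p of up to 0.0089.

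The measured transporters of the PHT families passed neither threshold in shoots. PHT1;8 read 4.06, 4.06 and 4.22 in replete shoots, against 4.07, 4.1 and 3.78 in starved shoots, so the groups overlapped. PHT1;3 and PHT1;9, of the same family of phosphate uptake transporters, changed by 0.07 and 0.15. PHT1;5 changed by -0.48 (SE 0.25, adjusted p = 0.26), PHT2;1 of the chloroplast by -0.33, PHT3;1 of mitochondria by 0.06 and PHT5;1 of the vacuole by 0.08. The permease G3Pp3 changed by 0.35 (adjusted p = 0.43).

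Enzymes that free phosphate from organic compounds fell in 5 of 9 measured cases at the 0.001 threshold and in 6 at the looser one. PS2, a phosphatase, read 4.04, 3.58 and 4.09 in replete shoots, against 9.76, 10.12 and 7.60 in starved shoots, and 3.68, 3.6 and 3.57 in mock shoots. It averaged 3.90 ± 0.28 in replete shoots and 9.16 ± 1.36 in starved shoots (SD, n = 3 each), a 38.2-fold fall (-5.26, SE 0.43, adjusted p = 1.2e-06 by limma). PECP1, which removes phosphate from phosphoethanolamine and phosphocholine, read 2.53, 2.58 and 3.06 in replete shoots, against 6.95, 7.68 and 5.16 in starved shoots, and changed by -3.87 (SE 0.44). In both genes starved array 3 was the lowest of its group, and replete and mock values overlapped.

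Purple acid phosphatases fell as well. PAP17 read 7.42, 7.27 and 6.96 in replete shoots, against 10.55, 10.82 and 10.12 in starved shoots, a change of -3.28 (SE 0.21, adjusted p = 4.3e-08). PAP12, a secreted phosphatase, changed by -2.16 (SE 0.16) and PAP1 by -1.33 (SE 0.18). PAP10, which acts at the root surface, passed the looser threshold alone, with -0.69 (SE 0.18, adjusted p = 0.029). PAP22 (-0.66, adjusted p = 0.14), PAP23 (-0.20) and PAP6 (0.02) passed neither. PAP24, which was outside the list, fell too (-2.32, SE 0.35, adjusted p = 0.00073), though it missed the 0.001 threshold in 19 of 26 Benjamini-Hochberg alternatives, with an adjusted p of up to 0.026.

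Membrane lipid remodelling held the most falls of the 4 lists. Of 12 measured genes, 10 fell at the 0.001 threshold and 11 at the looser one, and the list's median change was -2.13. GDPD1, a glycerophosphodiesterase that breaks down what is left of a deacylated phospholipid, read 4.84, 5.16 and 5.04 in replete shoots, against 10.51, 10.78 and 9.88 in starved shoots, and 4.73, 5.35 and 5.36 in mock shoots. It fell 41.5-fold (-5.38, SE 0.21, adjusted p = 1.3e-10), and replete and mock arrays overlapped.

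The galactolipid synthases MGD3 and MGD2 changed by -4.94 (SE 0.28) and -3.73 (SE 0.25). MGD3 read 3.73 to 4.1 in replete shoots, against 8.01 to 9.44 in starved shoots. MGD2 read 4.01, 4.07 and 3.92 in replete shoots, against 7.67, 8.30 and 7.22 in starved shoots. For both, replete and mock arrays overlapped and lay far below the starved ones.

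Of the enzymes that make sulfolipid, SQD2 read 7.14, 6.90 and 6.86 in replete shoots, against 10.28, 10.55 and 9.54 in starved shoots. It changed by -3.16 (SE 0.24, adjusted p = 4.8e-07). SQD1 changed by -2.11 (SE 0.19), and UGP3, which supplies UDP-glucose in the plastid, by -1.48 (SE 0.25, adjusted p = 0.0016), past the looser threshold alone.

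PLDP2, a phospholipase D that acts early in phospholipid breakdown, read 4.66, 4.72 and 4.70 in replete shoots, against 7.84, 8.16 and 6.96 in starved shoots, a change of -2.96 (SE 0.24). DGD1, which adds the second galactose to galactolipid, changed by -1.08 (SE 0.12) and PAH1, a phosphatidate phosphatase, by -1.11 (SE 0.14). The phosphodiesterases GDPD2 and GDPD5 changed by -2.15 (SE 0.24) and -1.25 (SE 0.18). DGD2 was the measured member that passed neither threshold (-0.26, SE 0.11, adjusted p = 0.17).

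**Figure D2:**
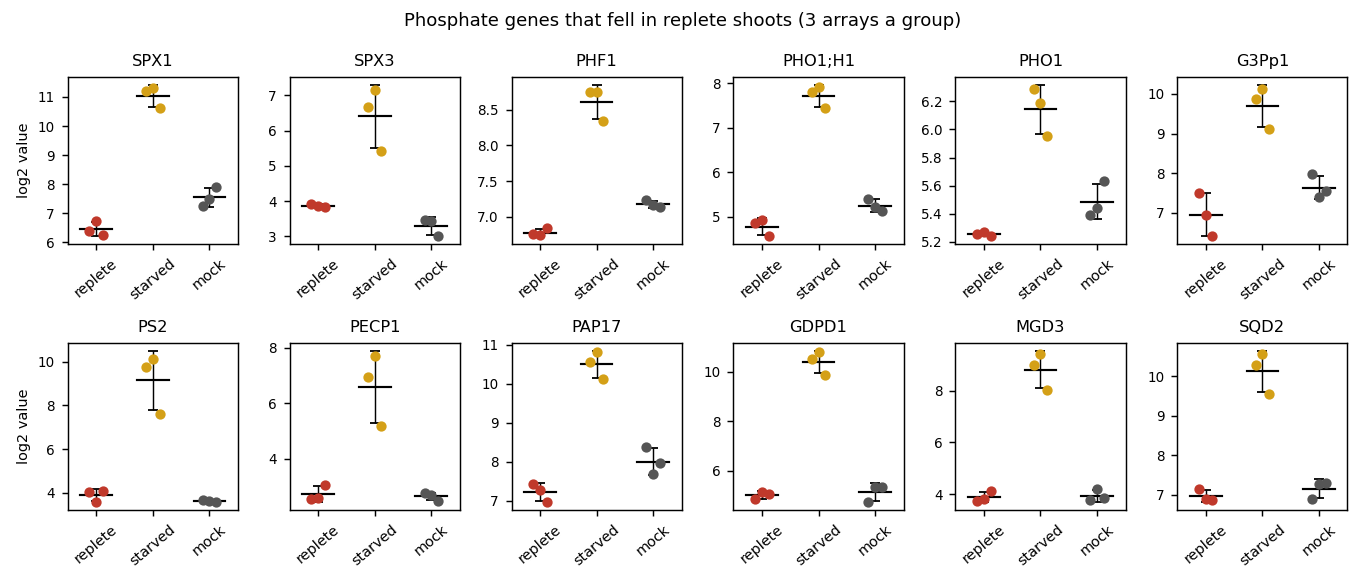
Log2 values of 12 phosphate genes in replete, starved and mock shoots (points are arrays, 3 a group; the bar is the mean and the whiskers 1 SD; each panel has its own y axis). Every replete array lies below every starved array, and replete SPX1 (6.25 to 6.73) lies below mock (7.26 to 7.91).

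Carbon metabolism moved in both directions. Of 17 measured genes of sucrose, starch and glycolysis, 4 fell and 1 rose at the 0.001 threshold, and 7 fell and 2 rose at the looser one, beside 0.602% and 0.106% of all probe sets lower and higher, and 4.68% and 3.96% at the looser threshold. All 7 falls lay among the 11 genes named from the root-based table, whereas AMY1, the rise at 0.001, was among the 6 named from the platform annotation. PPCK2, the kinase that activates phosphoenolpyruvate carboxylase, read 3.31, 3.29 and 3.26 in replete shoots, against 6.12, 6.66 and 4.66 in starved shoots. It changed by -2.53 (SE 0.31, adjusted p = 0.00011). PPC1, a phosphoenolpyruvate carboxylase, read 9.18, 8.89 and 9.14 in replete shoots, against 10.45, 10.54 and 9.97 in starved shoots, and changed by -1.25 (SE 0.17). The carboxylase PPC2 fell at the looser threshold (-0.75, adjusted p = 0.0057). PPC3, of the same family, moved the other way: it read 5.98, 5.81 and 5.75 in replete shoots, against 5.07, 4.79 and 4.89 in starved shoots, a change of 0.93 (SE 0.17, adjusted p = 0.0028) that passed the looser threshold alone.

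In sucrose synthesis, SPS1F, a sucrose-phosphate synthase, read 8.55, 8.65 and 8.86 in replete shoots, against 10.04, 10.06 and 9.69 in starved shoots. It changed by -1.24 (SE 0.17, adjusted p = 0.00040), and UGP1, which makes UDP-glucose in the cytosol, changed by -0.99 (SE 0.15, adjusted p = 0.00065). GPT1, which exchanges glucose 6-phosphate for phosphate across the plastid envelope, and PHS2, a glucan phosphorylase, changed by -0.57 and -0.63 at the looser threshold.

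The rise in this list was AMY1, an alpha-amylase. It read 9.10, 9.15 and 9.10 in replete shoots, against 7.26, 7.30 and 7.32 in starved shoots, and 8.39, 7.77 and 7.65 in mock shoots. The replete arrays lay above all others and close together. The change was 1.82 (SE 0.16, adjusted p = 2.2e-06), a 3.54-fold rise, and AMY1 passed the 0.001 threshold under all 27 Benjamini-Hochberg alternatives. Relative to mock shoots AMY1 was higher by 1.18 (adjusted p = 0.0025), short of the 0.001 threshold.

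Other large falls lay outside the phosphate and carbon lists. AT5G20790, which has no symbol in the tables used here, had the largest fall of all probe sets: 3.88, 4.31 and 4.22 in replete shoots, against 10.70, 10.96 and 9.36 in starved shoots, and 4.25, 4.32 and 4.50 in mock shoots. The fall was 73.7-fold (-6.20, SE 0.29, adjusted p = 1.2e-09). AT2G04460, a pseudogene in RefSeq, read 2.90, 3.12 and 2.64 in replete shoots, against 7.21, 7.39 and 7.78 in starved shoots. Its change of -4.57 (SE 0.15) had the smallest adjusted p of all probe sets, 1.0e-11, and here starved array 3 was the highest of its group.

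PFA-DSP4, a phosphatase, read 6.50, 6.24 and 5.97 in replete shoots, against 8.59, 8.89 and 8.49 in starved shoots. FHL, which helps phytochrome A into the nucleus and was in the list of clock and light genes, read 4.31, 4.04 and 4.60 in replete shoots, against 6.86, 7.04 and 5.88 in starved shoots. They changed by -2.42 (SE 0.14) and -2.28 (SE 0.23). The mock arrays of FHL, 3.44 to 3.68, lay below the replete ones, whereas those of PFA-DSP4 overlapped with them. Of the rest of the 25 largest named falls, AT1G08310 (-3.82), AT3G43110 (-3.10), AT1G67600 (-2.91), AT1G03020 (-2.61) and AT4G23000 (-2.25) are known here by locus alone, as is AT3G44510, both of whose probe sets fell (-2.92 and -2.58).

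Some smaller falls with known functions are named here after their values were seen. CRF8, a cytokinin response factor, changed by -1.65 (SE 0.21) and NF-YA7, a subunit of the CCAAT-binding factor, by -1.58 (SE 0.17). PPa4, a soluble pyrophosphatase, changed by -1.43 and APC2, a mitochondrial carrier of ATP and phosphate, by -1.11. SWEET4, a sugar transporter, changed by -1.36. Among 31 falls without a name, 259329_at changed by -4.18 and 266184_s_at by -3.62.

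Rises were fewer and smaller, and the largest named ones came from the jasmonate lists: the defensins PDF1.2a and PDF1.2b, and JRG21 of jasmonate synthesis and signalling. Of 7 measured jasmonate and ethylene defence effectors (13 listed), 2 rose at the 0.001 threshold, 4 at the looser one and 0 fell, beside 0.106% and 3.96% of all probe sets. The list's median change was 0.48. PDF1.2a, a plant defensin used as a reporter of joint jasmonate and ethylene signalling, read 8.66, 8.69 and 9.19 in replete shoots, against 6.35, 6.30 and 6.55 in starved shoots, and 7.57, 7.39 and 7.01 in mock shoots. The 3 groups did not overlap, with replete highest and starved lowest. The rise was 2.45 (SE 0.18, adjusted p = 2.8e-07), or 5.45-fold, and its adjusted p was at most 0.00042 over 27 Benjamini-Hochberg alternatives.

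PDF1.2a was one of 2 risen probe sets that also passed the 0.001 threshold in the test of replete minus mock shoots (1.52, adjusted p = 0.00095), which 5 of all 22746 probe sets did in either direction (0.022%). That test shares the replete arrays with the call of the rise, so it is not separate support. With the replicate number as a block the adjusted p of PDF1.2a was 0.0023, and it no longer passed. PDF1.2b, a near copy of PDF1.2a, read 9.86, 9.15 and 10.75 in replete shoots, against 7.68, 7.94 and 8.05 in starved shoots, and rose by 2.03 (SE 0.30, adjusted p = 0.00065). Its probe set is of the x_at type, whose probes can also bind related transcripts, so that it may not be a separate measurement. It missed the 0.001 threshold in 16 of 27 Benjamini-Hochberg alternatives, with an adjusted p of up to 0.023.

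Among other defensins, PDF1.4 read 5.65, 5.78 and 6.11 in replete shoots, against 4.21, 4.38 and 5.76 in starved shoots, so that starved array 3 overlapped the replete arrays. It passed the looser threshold (1.06, SE 0.30, adjusted p = 0.038), as did PDF1.1 (0.42, SE 0.12, adjusted p = 0.045). Over the Benjamini-Hochberg alternatives the adjusted p reached 0.17 for PDF1.4 and 0.18 for PDF1.1. PDF2.1 (0.17), PDF2.2 (-0.11) and THI2.1, a thionin (0.48, adjusted p = 0.19), passed neither threshold. The summed root markers were also higher in replete than in starved shoots, and their part in these rises was not tested.

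JRG21, an oxygenase that inactivates jasmonate, read 6.32, 6.53 and 7.60 in replete shoots, against 3.69, 5.05 and 4.70 in starved shoots, and 4.52, 5.57 and 4.42 in mock shoots. It rose by 2.34 (SE 0.36, adjusted p = 0.00083), or 5.05-fold. The spread within groups was wide, and it missed the 0.001 threshold in 21 of 26 Benjamini-Hochberg alternatives, with an adjusted p of up to 0.024. The list of jasmonate synthesis and signalling was thinly measured, with 3 of 26 genes. Of the 2 besides JRG21, JMT, the jasmonate methyltransferase, fell at the looser threshold (-0.71, SE 0.16, adjusted p = 0.013). OPCL1, a ligase of jasmonate synthesis, changed by 0.30 (adjusted p = 0.31).

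Salicylate-linked defence was thinly measured, with 2 of 24 listed genes. SAG101, an immune partner of EDS1, read 5.95, 5.79 and 6.20 in replete shoots, against 5.06, 5.30 and 5.46 in starved shoots, and passed the looser threshold (0.71, SE 0.21, adjusted p = 0.046). SAG101 missed that threshold in 13 of 27 Benjamini-Hochberg alternatives, with an adjusted p of up to 0.16. UGT76B1, which glucosylates isoleucic acid and salicylate, read 3.83, 3.70 and 3.96 in replete shoots, against 3.82, 3.35 and 3.61 in starved shoots, and did not pass (adjusted p = 0.55). Both groups lay below its mock arrays, 5.86, 4.93 and 4.87.

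Beyond the lists, CYP71B36, a cytochrome P450, read 5.84, 6.05 and 5.56 in replete shoots, against 4.72, 4.62 and 4.81 in starved shoots. It rose by 1.1 (SE 0.13, adjusted p = 0.00011), and its mock arrays, 5.46 to 5.64, overlapped the replete ones.

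**Figure D3:**
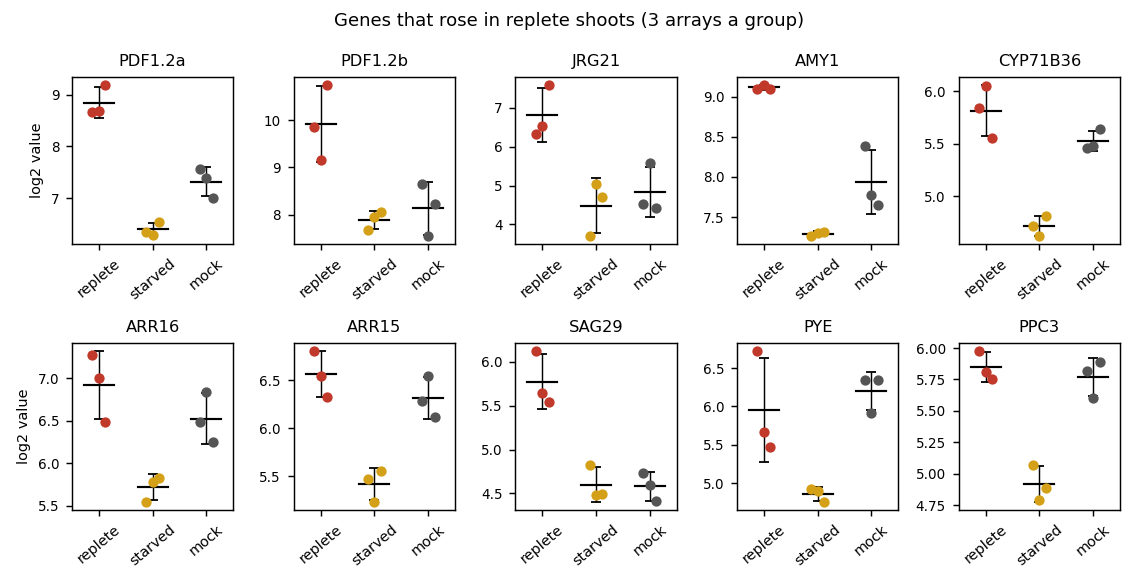
Log2 values of 10 genes in replete, starved and mock shoots (points are arrays, 3 a group; the bar is the mean and the whiskers 1 SD; each panel has its own y axis). Every replete array lies above every starved array, and for PDF1.2a, PDF1.2b, JRG21, AMY1 and SAG29 above every mock array too.

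Of 9 measured cytokinin genes, 1 rose at the 0.001 threshold, 3 at the looser one, and 0 fell, beside 0.106% and 3.96% of all probe sets higher. Of the 9, 7 were named from the root-based table, and 1 of these rose at the looser threshold. The response factor CRF8, which fell, is not on the list, whereas CRF5 and CRF6 of its family are. ARR16, a type-A response regulator that is switched on by cytokinin and damps its signal, read 7.28, 7.01 and 6.49 in replete shoots, against 5.54, 5.78 and 5.83 in starved shoots, and 6.49, 6.84 and 6.25 in mock shoots. It rose by 1.21 (SE 0.17, adjusted p = 0.00043). ARR15, of the same type, read 6.81, 6.55 and 6.33 in replete shoots, against 5.47, 5.23 and 5.55 in starved shoots, a change of 1.15 (SE 0.19, adjusted p = 0.0014) that passed the looser threshold. In both, replete and mock arrays overlapped and the starved arrays were the lowest.

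CKX4, a cytokinin oxidase, passed the looser threshold (0.47, SE 0.14, adjusted p = 0.044), but missed it in 13 of 27 Benjamini-Hochberg alternatives, with an adjusted p of up to 0.21. IPT3, which makes cytokinin, read 7.37, 7.14 and 6.62 in replete shoots, against 6.82, 6.59 and 6.39 in starved shoots, and did not pass (0.44, SE 0.18, adjusted p = 0.15). The other 5 measured genes, among them CRF5 (0.31), a cytokinin response factor, and CYP735A2 (0.09), which makes trans-zeatin, did not pass either.

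Other hormone lists gave few calls, but few of their genes were measured. Of 7 auxin genes (24 listed) and 2 ethylene genes (21 listed), 0 passed the looser threshold. The auxin changes ran from -0.25 (IAA2, a repressor of auxin response) to 0.48 (GH3.3, an auxin-conjugating enzyme, adjusted p = 0.12). Of 33 listed genes of abscisic acid, dehydration and cold, 5 were measured, and all 5 changes were below 0. COR15B and LTI30, protective proteins made in the cold, fell at the looser threshold (-0.53 and -0.59, adjusted p = 0.044 each), beside 4.68% of all probe sets. They missed it in 17 and 14 of 27 Benjamini-Hochberg alternatives, with an adjusted p of up to 0.15 and 0.18.

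Of 10 measured iron genes, 2 rose and 3 fell at the looser threshold and 0 passed 0.001, beside 3.96% and 4.68% of all probe sets higher and lower at the looser threshold. The 3 falls lay among the 5 genes named from the root-based table. PYE, a bHLH regulator of the iron deficiency response, read 6.73, 5.67 and 5.47 in replete shoots, against 4.92, 4.89 and 4.75 in starved shoots (1.1, SE 0.23, adjusted p = 0.0085). Without replete array 1 its change was 0.72 (adjusted p = 0.015). FRO3, a ferric reductase, rose too (0.85, adjusted p = 0.043). The ferritins FER2 and FER3, which store iron, changed by -0.56 and -0.84 (adjusted p = 0.017 each), and the nicotianamine synthase NAS3 by -1.09 (adjusted p = 0.0047). Of 3 zinc, 4 nitrogen and 4 sulfate genes, 0 passed.

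In anthocyanin genes starved array 3 stood apart from starved arrays 1 and 2. DFR, which makes the colourless precursors of anthocyanins, read 7.69, 6.71 and 6.94 in replete shoots, against 9.48, 9.72 and 7.10 in starved shoots. The change was -1.65 (SE 0.48, adjusted p = 0.041), and without starved array 3 it was -2.49 (adjusted p = 3.7e-05). The anthocyanin transferases UGT75C1, 5MAT and UF3GT showed the same split of the starved arrays and changed by -1.29, -1.0 and -1.09 (adjusted p of 0.055, 0.052 and 0.13).

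Several functions showed few calls or none. Of 6 photosynthesis genes, 0 passed the looser threshold, with changes from -0.40 (SBPASE, of the Calvin cycle) to -0.01 (RCA, rubisco activase), although their summed level did not overlap between the groups. Of 3 heat shock genes, 0 passed. Of 3 senescence genes, SAG29, a sucrose transporter, read 6.13, 5.65 and 5.54 in replete shoots, against 4.83, 4.48 and 4.49 in starved shoots, and 4.73, 4.60 and 4.41 in mock shoots. Its starved and mock arrays overlapped, and it passed the looser threshold (1.17, SE 0.19, adjusted p = 0.0013). HB1, a haemoglobin of low oxygen, passed as well (0.76, adjusted p = 0.015).

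Of 10 expansins and xyloglucan enzymes, which loosen or remodel cell walls, EXPA16 fell at the 0.001 threshold, with a change of -1.07 (SE 0.15, adjusted p = 0.00040). EXPA8 rose at the looser threshold (1.04, SE 0.28, adjusted p = 0.029). XTH19, a xyloglucan enzyme that is named here after its values were seen, read 6.37, 6.46 and 6.76 in replete shoots, against 6.44, 6.88 and 6.41 in starved shoots, and 4.35, 5.12 and 4.83 in mock shoots. Replete and starved arrays overlapped, and both lay above the mock arrays. Its replete minus mock difference passed the 0.001 threshold (1.76, adjusted p = 0.00073), 1 of the 5 that did.

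**Figure D4:**
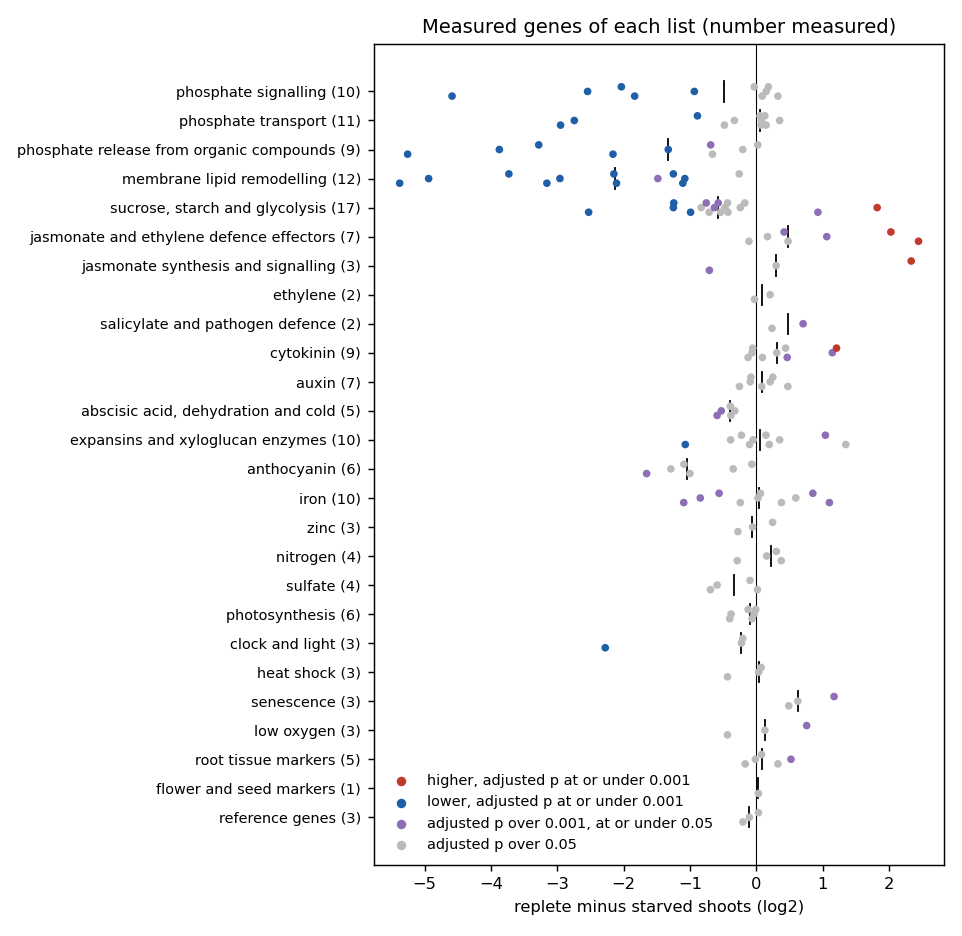
Change between replete and starved shoots (log2, x axis) of each measured gene of 26 lists (points; the number measured is in brackets and the black line is the list's median), coloured by adjusted p and direction. The 4 phosphate lists at the top hold 23 falls at the 0.001 threshold, and the defence effectors reach 2.45.

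The remaining named rises had no symbol with a known role here, except ATIM, a homologue of TIMELESS, which rose by 0.82 (SE 0.10). The loci AT1G65510 (1.64), AT3G02480 (1.58), AT3G57930 (1.39), AT2G39420 (0.95), AT2G14460 (0.89), AT5G53050 (0.84), AT5G06110 (0.83), AT2G21580 (0.70), AT5G61370 (0.60) and AT4G25210 (0.55) completed the 17. Many of these calls were unstable over the Benjamini-Hochberg alternatives. AT5G61370, AT2G21580, AT4G25210 and AT2G39420 missed the 0.001 threshold in 19, 17, 16 and 15 of 27, and AT3G02480 in 15 of 26. The other loci missed it in 3 (AT3G57930) to 7 (AT1G65510) of 27. AT3G10930 lay just outside the threshold (1.88, adjusted p = 0.00102), and AT3G02480 just inside (adjusted p = 0.00092). Among 7 rises without a name, 266292_at rose by 2.01 and 257592_at by 1.94.

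Replete shoots were also set against mock shoots, which were never starved. The replete and mock means lay within 0.5 of each other in 111 of the 137 lower probe sets and in 9 of the 24 higher ones, beside 95.1% of all probe sets, so that closeness to mock did not set the falls apart. The replete mean was below the mock mean in 104 of the 137, and the starved mean above it in 136. For the rises, the replete mean was above the mock mean in 23 of 24 and the starved mean below it in 23. These positions use the arrays that made the calls. In the test of replete minus mock, 2 of the 24 and 1 of the 137 passed the 0.001 threshold, beside 0.022% of all probe sets. This test, too, shares the replete arrays with the calls. With the replicate number as a block, 10 probe sets passed (0.044%) where 5 did without it, and 4 of the 5 were among them.

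Roots gave separate arrays under the same treatment. There, 537 probe sets were higher (2.36%) and 634 lower (2.79%) in replete than in starved plants. Of the 137 probe sets lower in shoots, 73 were also lower in roots (53.3% of the shoot falls and 11.5% of the root falls), 2 were higher in roots and 62 were not called there. Of the 24 shoot rises, 0 were called in roots, in either direction. Beside 2.36% and 2.79% of all probe sets, 0 of 24 does not set the rises apart. At the looser threshold some passed in roots, among them AT1G65510, which was higher (1.03, adjusted p = 0.0038), and ATIM, which was lower (-0.50, adjusted p = 0.0015). The difference between the organs, tested itself, passed the 0.001 threshold for 7 of the 24 rises and 16 of the 137 falls, beside 1.1% of all probe sets. This test includes the shoot arrays that made the calls, so a higher share among called probe sets is partly built in. For the rises and falls without a called difference between organs, a missing call in roots did not show a difference.

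Among the rises, PDF1.2a changed by -0.28 in roots (SE 0.18, adjusted p = 0.27), and the shoot change exceeded the root change by 2.73 (SE 0.25, adjusted p = 1.2e-05). AMY1 changed by 0.04 in roots, a difference between organs of 1.78 (SE 0.22, adjusted p = 0.00015). The difference was also called for CYP71B36 (1.47), ATIM (1.32) and AT5G61370 (0.95). For JRG21, PDF1.2b and ARR16 the differences were 2.32, 2.09 and 1.12, with adjusted p of 0.0067, 0.0045 and 0.0064, past 0.05 but not 0.001.

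Among the falls, PHO1 moved in opposite directions. It changed by -0.89 in shoots and rose by 0.93 in roots (adjusted p = 9.6e-05), a difference of -1.81 (SE 0.18, adjusted p = 2.3e-05). SPX3 and PAP17 fell further in roots than in shoots, by -5.60 and -5.35, with differences of 3.05 (adjusted p = 0.00067) and 2.07 (adjusted p = 0.00042). AT2G04460 did too, with a difference of 1.51, whereas AT1G03020 fell further in shoots (-1.49). PHO1, SPX3 and PAP17 were named from the root-based table, so that their root calls follow from how they were named. The unnamed 259329_at changed by -4.18 in shoots and changed by -0.25 in roots (difference -3.93, adjusted p = 4.2e-06).

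For much of the core response the difference missed the 0.001 threshold, which does not show that the organs were alike. At 0.05 it passed for MGD3 (1.49, adjusted p = 0.020), PECP1 (2.58, 0.012) and SQD1 (1.13, 0.012). It also passed for PLDP2 (1.21, 0.024) and G3Pp1 (1.78, 0.019), and all of these fell further in roots. PS2 (0.98, 0.29) and PHO1;H1 (-0.69, 0.062) did not pass 0.05. SPX1, SPX2 and PHF1 changed by -5.76, -2.08 and -2.18 in roots, with differences between organs of 1.18 (adjusted p = 0.013), 0.05 (0.88) and 0.35 (0.11). MGD2 changed by -3.73 in roots, as in shoots (difference SE 0.35). GDPD1 changed by -3.65 in roots, with a difference of -1.72 (adjusted p = 0.0017) that missed the 0.001 threshold.

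Some phosphate genes were called in roots and not in shoots, and differed between the organs. PHT1;8 and PHT1;9 changed by -4.00 and -3.13 in roots, with differences of 4.13 (adjusted p = 3.7e-08) and 3.28 (adjusted p = 1.7e-06), and PHT1;3 by -2.01 (difference 2.09, adjusted p = 0.00073). PAP6, DGD2 and LPR1 also differed (2.12, 1.18 and 1.38). Of these 6, LPR1 was named from the platform annotation and the others from the root-based table, so that their root calls follow from how they were named. PHT1;3 averaged 2.69, 2.62 and 2.66 in replete, starved and mock shoots, PHT1;8 4.11, 3.98 and 3.99, and PHT1;9 4.14, 3.99 and 3.59. Whether such dim probe sets were above background was not examined, so that a fall in shoots could have gone unseen.

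The cytokinin genes ARR15 and ARR16 changed by -0.27 and 0.09 in roots. The difference between organs missed the 0.001 threshold for all 9 cytokinin genes. PPC3 was higher in replete than in starved shoots and lower in replete than in starved roots (-0.95), a difference of 1.88 (adjusted p = 0.00014).

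**Figure D5:**
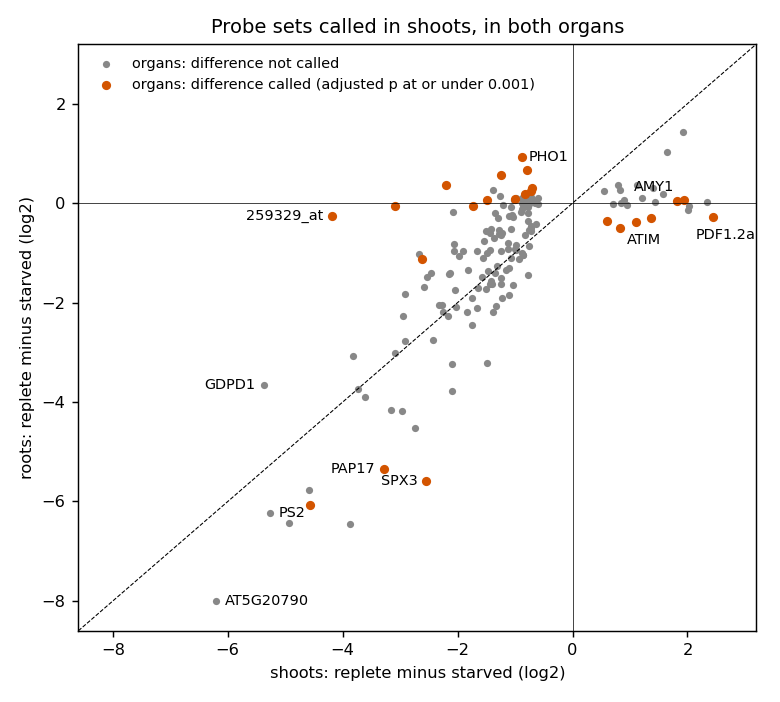
Change in shoots (log2, x axis) and change in roots (log2, y axis), both replete minus starved, for the 161 probe sets called in shoots, with orange where the difference between organs was called and a dashed line of equal change. PHO1 lies at -0.89 and 0.93, and PDF1.2a and AMY1 lie near 0 in roots (-0.28 and 0.04).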

How the data were processed

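RNA of 18 samples, in 6 groups of 3 (shoots and roots, each replete, starved and mock), was measured on Affymetrix ATH1 arrays. The deposited log2 values were made by the authors with the affy package of R, whose version the sources used here do not give: background correction, quantile normalization over arrays and median polish over the probes of a probe set. Quantile normalization makes arrays alike (their medians ran from 5.88 to 5.98) and would hide a shift of all genes. The values were used as deposited, and 0 value columns were left unmapped. Scanner files were not used here, so whether a dim probe set was above background was not examined, and precision is limited by 3 arrays a group. There were 0 pairs of identical arrays.

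One mean per group was fitted with limma 3.58.1 (lmFit, then eBayes, R 4.3.3) over the 18 arrays, with 12 residual degrees of freedom, 16.5 after moderation. Tests were two-sided, with Benjamini-Hochberg adjustment over 22746 probe sets in each contrast, and all adjusted p-values are from this fit or its alternatives. The 0.001 level is that of the study's methods, which state a Bonferroni correction. Whether the study's published calls followed that rule was not examined. Benjamini-Hochberg was the main adjustment here and calls more probe sets, and Bonferroni at the same level was an alternative. Contrasts were replete minus starved in shoots, the same in roots, their difference, and replete minus mock in shoots. Same-numbered replete and mock shoot arrays deviated together from their group means (correlations of 0.18, 0.15 and 0.30). The paper describes replicate experiments, but no source says whether a number marks such an experiment. Replete minus mock was therefore also fitted with the number as a block, an alternative chosen after seeing the data. The fit was tested on simulated data.

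Probe sets were named from the platform table where it gave 1 gene (13513, of which 13436 matched RefSeq), otherwise from the probe set and locus columns of the study's supplementary table (551). No name was found for 8154, and several genes were given for 503 in the platform table and 25 in the study's. Where both sources gave a name, 647 of 654 agreed. A list gene is represented by its probe set with the highest mean over all arrays. The 26 lists held 492 genes, of which 158 had such a probe set. Named genes were all called rises and the 25 largest called falls with 1 gene and no overlap between the groups, and up to 4 genes per list by p. Other genes are named to account for a list or as stated. The members and lists were chosen with earlier results of these data known. The study's own fold changes and p-values were not used. Sequences and coordinates are not given here.

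Alternatives were Bonferroni at 0.001, an adjusted p of 0.05, fits on fewer arrays, a replicate block, quantile normalization within an organ, centring on 3 reference genes or 18 spike-in probe sets, a mean log2 of 5 or more, eBayes with trend and robust, array weights, and leaving out each array.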

Additional observations from a re-analysis of the deposited data

Results flagged for a closer look

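The change on phosphate return differed between shoots and roots, by the limma test of the difference with an adjusted p of 0.001 or less, for 17 of the genes named in the text. Each is given as the shoot change minus the root change (log2). Shoots were above roots for PDF1.2a (2.73), AMY1 (1.78), CYP71B36 (1.47), ATIM (1.32), AT5G61370 (0.95) and PPC3 (1.88). In these, the change was above 0 in shoots and lay between -0.95 (PPC3) and 0.04 (AMY1) in roots. The fall was smaller in shoots for AT2G04460 (1.51), PAP17 (2.07) and SPX3 (3.05). The fall was called in roots and the shoot change passed neither threshold for LPR1 (1.38), PHT1;3 (2.09), PHT1;8 (4.13), PHT1;9 (3.28), PAP6 (2.12) and DGD2 (1.18). Except for LPR1, these were named from the root-based table, so that their root calls follow from how they were named. The same holds for PPC3, PAP17, SPX3 and PHO1. The change was lower in shoots for AT1G03020 (-1.49), which fell in both organs, and for PHO1 (-1.81), which fell in shoots and rose in roots. Groups of 3 arrays were not searched for single outlying arrays.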

How the results depend on the processing

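Counts of calls depended on how the spread and the threshold were set, and all counts below are probe sets higher and lower in shoots (24 and 137 as reported), those that differed between organs (250) and phosphate-list genes lower (23). Bonferroni gave 3, 39, 28 and 13, and an adjusted p of 0.05 gave 901, 1064, 3587 and 25. Shoot arrays alone gave 3, 37 and 13 (no root arrays, hence no organ difference), replete and starved shoot arrays alone 3, 20 and 9, and the 12 replete and starved arrays of both organs 71 that differed. Centring on reference genes gave 46 higher, array weights 52 higher and 803 that differed, and a mean log2 of 5 or more 166 that differed, with 14227 probe sets tested. Leaving out single arrays gave 6 to 48 higher, 61 to 240 lower, 108 to 461 that differed and 17 to 24 phosphate-list genes.

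Calls in shoots moved by over 1.5 times without starved array 1 (6 and 61), 2 (11 and 65) or 3 (38 and 240), without replete array 1 (9 and 83), 2 (11 and 75) or 3 (12 and 73), and, for the rises, without root replete array 1 (48). The number that differed moved without shoot starved array 1 (132) or 2 (111), any shoot replete array (143 each), root starved array 1 (114), 2 (108) or 3 (461), and root replete array 1 (404), 2 (121) or 3 (121). Without starved array 3, 123 of the 137 falls and 17 of the 24 rises were kept. The causes were not tested.

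Same-numbered replete and starved shoot arrays deviated from their group means with correlations of 0.45, -0.08 and 0.37. The first and last exceed those of replete and mock arrays (0.18, 0.15 and 0.30), so these values do not settle whether same-numbered arrays belong together. The main fit did not pair the groups by number, and a block on the number was its alternative. The replicate block gave 24 higher, 139 lower, 202 that differed and 23 phosphate-list genes, with 16, 114, 163 and 23 kept, and 2 of 3 starved arrays correlated best with the replete array of their own number. For replete minus mock, the block gave 10 that differed where 5 did without it.

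Over 75 genes with an adjusted p at or under 0.05 and up to 29 alternatives, no direction turned, 1713 of 2161 values stayed on their side of the threshold and 448 no longer passed, and 17 genes, PDF1.2a, AMY1, SPX1 and GDPD1 among them, passed throughout. The size moved by over 1.5 times for DFR (-2.49 without starved array 3) and PYE (0.72 without replete array 1). Centring on reference genes shifted the median change to 0.087 and on spike-ins to 0.038.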
